A study of Mus musculus with 75 samples.

Results

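Loss of the cannabinoid receptor CB1 was examined in the epididymal white fat of chow-fed, vehicle-treated male mice, on 10 of the 75 microarrays of the study: 5 from mice without the receptor (CB1R-/-, called knockout, mice 15 to 19) and 5 from wild-type mice (mice 1 to 5). The 10 arrays were taken by their titles, which give diet, genotype, treatment and tissue. The wild-type titles number samples 1 to 5, which are called mice 1 to 5 here. All mice were male; the strain label is C57BL/6. Per the design text, the null allele was back-crossed to C57BL/6J and re-derived on C57BL/6N, and the controls were littermates. From 2 months of age the mice ate chow with 13% of its energy from fat for 14 weeks. They were caged singly before dosing and then received vehicle, 0.5% methylcellulose, by oral gavage on 2 days. The same genotypes were compared in 3 other settings: in chow-fed mice given 10 mg/kg AM251, a CB1 inverse agonist, in that vehicle (fat, 3 knockout and 5 wild-type arrays), in vehicle-treated mice on a high-fat diet with 59.4% of energy from fat (fat, 3 and 5 arrays), and in liver of chow-fed vehicle-treated mice (5 and 5 arrays). The deletion is present in every cell of the knockout from conception, so the comparison holds any change made during development as well as the absence of the receptor in the adult.

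CB1, encoded by Cnr1, is a G protein-coupled receptor for the lipid messengers anandamide and 2-arachidonoylglycerol, which cells make from membrane lipids on demand and which hydrolases such as FAAH and monoacylglycerol lipase break down. It couples mainly to inhibitory G proteins and so lowers cyclic AMP. It is best known in nerve terminals, where it damps transmitter release and raises appetite, but it is also made in fat cells, liver and muscle, and blocking it is known to favour fatty acid oxidation and to limit lipid storage. Whole-body knockouts are known to be lean and to resist diet-induced obesity.

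The 36 fat arrays had median intensities between 44.29 and 48.04, and the mean correlation of each array with the other fat arrays ran from 0.977 to 0.990 over all probe sets. The white fat cell markers gave the tissue label its check: adiponectin (Adipoq) had a mean log2 intensity of 13.89 in knockout and 13.94 in wild-type fat, and the summed intensity of 10 fat cell markers ran from 96816 to 101306 on knockout and from 97108 to 103872 on wild-type arrays. Among the 10 arrays wild-type mouse 5 stood apart. Its summed intensity of 12 smooth muscle and pericyte markers was 15018, against 5426 to 6318 on the other wild-type arrays and 5366 to 6248 on knockout arrays, and its sums of epididymal, testicular and skeletal muscle markers were also the highest of the 10. Results that rest on it are given without it as well.

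**Figure D1:**
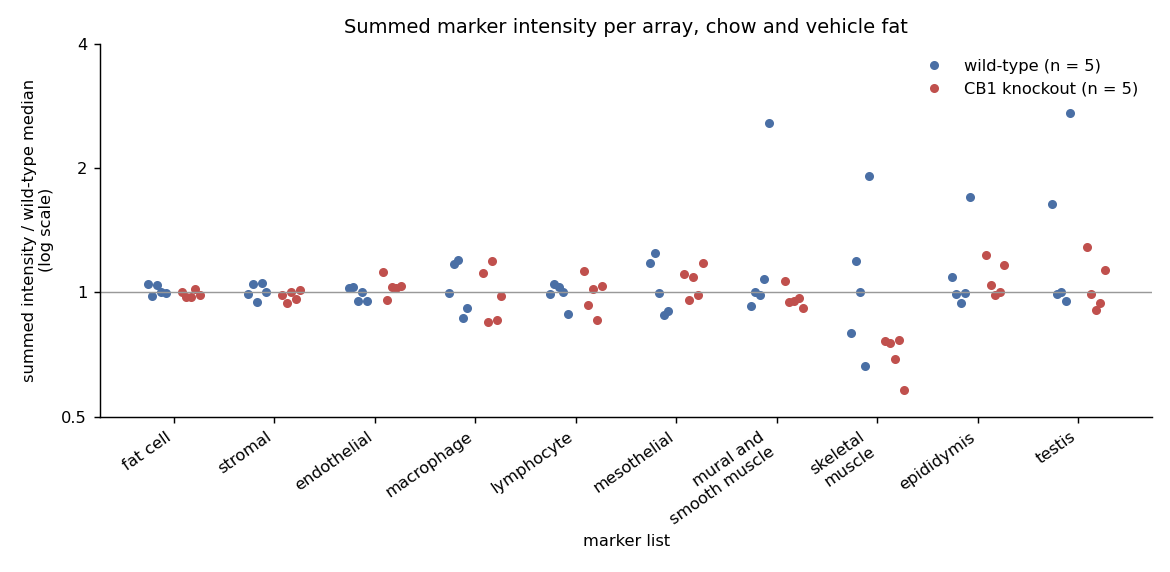
Summed intensity of cell type markers on each of the 10 arrays, divided by the wild-type median of that list, on a log scale. Fat cell, stromal and endothelial sums differ little between arrays, while wild-type mouse 5 is the highest point for smooth muscle, skeletal muscle, epididymis and testis.

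Few genes differed between knockout and wild-type chow fat. Of 19147 genes tested, 11 passed an adjusted p of 0.05 (limma, Benjamini-Hochberg over all genes), which is 0.0575% of them; 4 were higher (0.0209%) and 7 lower (0.0366%) in the knockout. At an unadjusted p under 0.05 there were 1733 genes (9.05%), where 957 are expected by chance. The sizes were small too: 344 genes differed by more than 0.5 on the log2 scale and 50 by more than 1. The median log2 difference of all genes was 0.02. In the other fat comparisons of the same genotypes, 650 genes passed under AM251 (3.39%; 1.98% higher and 1.42% lower) and 3048 on the high-fat diet (15.9%; 7.22% higher and 8.7% lower), with smaller knockout groups. The count of 11 depended on single mice. It was 34 without knockout mouse 15, but 3, 2 and 4 without knockout mice 17, 18 and 19, and 5 and 6 without wild-type mice 2 and 4. Without wild-type mouse 5 it was 12, of which 8 were among the 11.

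**Figure D2:**
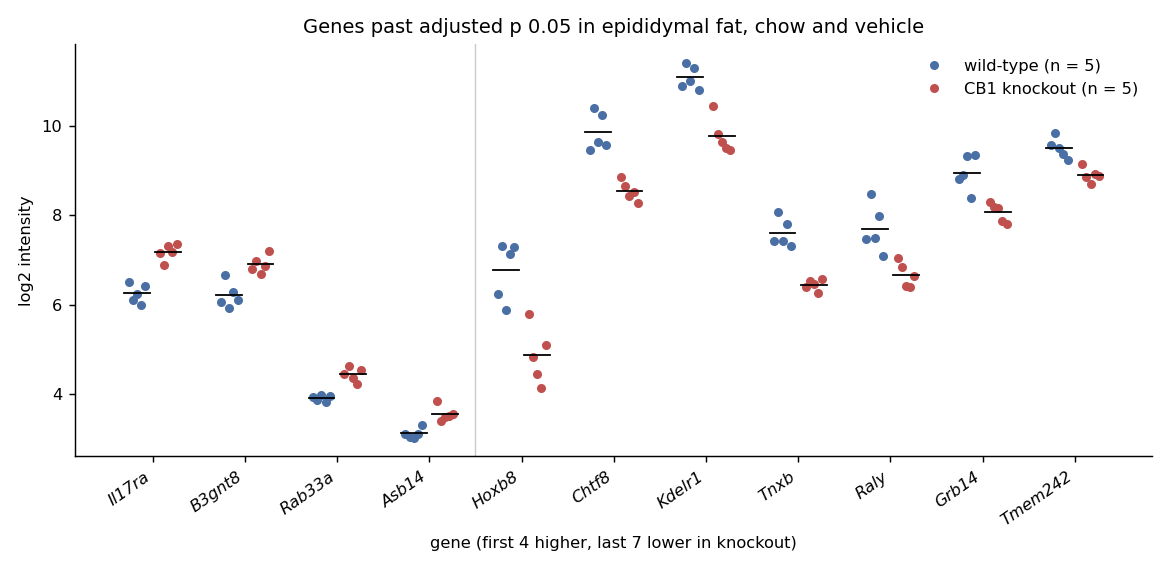
Log2 intensity on each array for the 11 genes past the threshold, with wild-type mice in blue, knockout mice in red and black bars at the group means. In each of the 11 genes the 5 knockout values lie wholly on one side of the 5 wild-type values, as in 331 of all genes (1.73%). The 11 were chosen on these same arrays, so their separation is no separate support. Of the 4 higher genes, Rab33a and Asb14 lie near the dim end of the scale.

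The interleukin 17 receptor subunit Il17ra (chromosome 6) was the gene with the smallest adjusted p. Its log2 intensities were 7.16, 6.90, 7.32, 7.18 and 7.37 in knockout mice 15 to 19, and 6.51, 6.11, 6.25, 5.99 and 6.43 in wild-type mice 1 to 5. Every knockout array was above every wild-type array. The means were 7.19 ± 0.18 and 6.26 ± 0.22 (SD, n = 5 each), a log2 difference of 0.93 ± 0.15 (SE; 1.91-fold, adjusted p = 0.00651). IL17RA is the shared subunit through which IL-17 cytokines signal in many cell types, fat cells among them. Il17ra and Rab33a kept their calls in each of the 10 fits without 1 array, with adjusted p from 0.00416 to 0.0445 for Il17ra and from 0.0088 to 0.04998 for Rab33a.

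The other genes that were higher in the knockout were B3gnt8, a glycosyltransferase that extends sugar chains on proteins, the small GTPase Rab33a, and Asb14, which has ankyrin repeats and a SOCS box. Rab33a had log2 intensities of 4.45, 4.63, 4.38, 4.23 and 4.54 in knockout mice 15 to 19 and of 3.94, 3.87, 3.98, 3.83 and 3.97 in wild-type mice 1 to 5. The groups did not overlap, and the wild-type values lay within a very narrow band (4.44 ± 0.15 and 3.92 ± 0.07, SD, n = 5 each; log2 difference 0.53 ± 0.09, adjusted p = 0.0124). B3gnt8 was at 6.91 ± 0.20 against 6.21 ± 0.28 (SD, n = 5 each), with the lowest knockout array at 6.69 just above the highest wild-type array at 6.67 (log2 difference 0.70 ± 0.14, adjusted p = 0.0455). Asb14 was dim, at 3.56 ± 0.16 against 3.13 ± 0.12 (SD, n = 5 each), and differed by 0.44 ± 0.09 (adjusted p = 0.0365). B3gnt8 and Asb14 each lost the call in 8 of the 10 fits without 1 array, with adjusted p up to 0.203 and 0.112. B3gnt8 kept it without knockout mouse 15 or wild-type mouse 2, and Asb14 without knockout mouse 16 or wild-type mouse 5. Both lost it in a fit of the 10 arrays alone (adjusted p = 0.12 and 0.169).

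Of the 7 genes that were lower, 6 have roles with no shared pathway: the homeobox factor Hoxb8, which marks position along the body axis; Chtf8, a subunit of an alternative clamp loader of DNA replication; Kdelr1, the receptor that returns escaped chaperones from the Golgi to the endoplasmic reticulum; the matrix glycoprotein tenascin X (Tnxb); the RNA-binding protein Raly; and the membrane protein Tmem242. Hoxb8 fell most, with log2 intensities of 5.80, 4.84, 4.45, 4.15 and 5.11 in knockout mice 15 to 19 and of 6.24, 7.32, 5.88, 7.14 and 7.29 in wild-type mice 1 to 5. The groups came close, since knockout mouse 15 lay just under wild-type mouse 3 (log2 difference -1.90 ± 0.35, adjusted p = 0.0226). Kdelr1, a bright gene, read 10.44, 9.82, 9.64, 9.50 and 9.45 in knockout mice 15 to 19 and 10.90, 11.41, 11.01, 11.30 and 10.79 in wild-type mice 1 to 5. Again knockout mouse 15 was the nearest to the wild-type arrays, and the log2 difference was -1.31 ± 0.25 (adjusted p = 0.0226). Chtf8 differed by -1.32 ± 0.25 and Raly by -1.03 ± 0.19 (adjusted p = 0.0226 for both). Tnxb was at 6.45 ± 0.12 in knockout and 7.62 ± 0.32 in wild-type fat (SD, n = 5 each; log2 difference -1.17 ± 0.20, adjusted p = 0.0124), and Tmem242 at 8.90 ± 0.16 and 9.51 ± 0.22 (log2 difference -0.61 ± 0.12, adjusted p = 0.0405).

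These lower genes, grouped by their direction, were also alike in the order of mice. How often each mouse was the highest of its group over all genes was not counted. Counting Grb14 (below), knockout mouse 15 was the highest of the 5 knockout arrays in 6 of the 7 genes, and wild-type mouse 2 the highest of the 5 wild-type arrays in 6 of the 7. Wild-type mice 2 and 4 were the 2 highest in Chtf8, Kdelr1, Tnxb and Raly. Chtf8, Kdelr1 and Raly each lost the call without knockout mouse 17, 18 or 19 or wild-type mouse 2 or 4 (adjusted p from 0.0718 to 0.112 over these fits). Hoxb8 lost it without knockout mouse 17 or 18 or wild-type mouse 2, 4 or 5 (0.0518 to 0.0865), and Tnxb without knockout mouse 18 or wild-type mouse 2 (0.0586 and 0.0757). Tmem242 kept it without knockout mouse 15 or wild-type mouse 5 and lost it in the other 8 fits (0.0662 to 0.154). The 11 genes lie on chromosomes 2, 6, 7, 8, 11, 14, 17 and X; none lies on chromosome 4, which carries Cnr1, and each has a single probe set on the array.

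Grb14 (chromosome 2) was the 1 gene of the 11 that was also lower past the threshold in both other fat comparisons of the genotypes. It encodes an adaptor that binds the activated insulin receptor and inhibits its kinase. In chow-fed vehicle mice its log2 intensities were 8.29, 8.18, 8.18, 7.88 and 7.80 in knockout mice 15 to 19 and 8.80, 8.91, 9.33, 8.40 and 9.35 in wild-type mice 1 to 5. The lowest wild-type value, that of mouse 4, stayed above the highest knockout value, that of mouse 15. The log2 difference was -0.89 ± 0.18 (SE, n = 5 each; 0.539 times the wild-type intensity, adjusted p = 0.0405). Under AM251 it was -0.93 ± 0.21 (adjusted p = 0.0089) and on the high-fat diet -0.68 ± 0.21 (adjusted p = 0.0208), and neither size differed past the threshold from that in chow-fed vehicle fat (genotype by treatment 0.04, adjusted p = 0.960; genotype by diet -0.21 ± 0.27, adjusted p = 0.737). In liver, where Grb14 read 9.27 ± 0.22 in knockout and 9.23 ± 0.06 in wild-type mice (SD, n = 5 each), the log2 difference was 0.04 (adjusted p = 0.874). The chow vehicle call was lost without knockout mouse 17, 18 or 19 or wild-type mouse 1, 2, 3 or 5 (adjusted p from 0.0615 to 0.189) and in a fit of the 10 arrays alone (0.112), with the log2 difference between -1.03 and -0.79 in the fits without 1 array.

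Over all 8 groups of fat, Grb14 was lowest in chow-fed knockout mice given AM251, at 7.71 ± 0.06 (SD, n = 3), and highest in the chow-fed wild-type vehicle mice, at 8.96 ± 0.40 (SD, n = 5). In between lay the chow-fed knockout vehicle mice at 8.07 ± 0.21, high-fat wild-type mice given AM251 at 8.07 ± 0.45, high-fat knockout vehicle mice at 8.12 ± 0.25 (n = 3), high-fat knockout mice given AM251 at 8.55 ± 0.15, chow-fed wild-type mice given AM251 at 8.64 ± 0.38 and high-fat wild-type vehicle mice at 8.80 ± 0.16 (n = 5 where not given). Neighbours in this order differed by less than the spread within the groups from the second to the fourth place and from the fifth to the eighth. The high-fat mice given AM251 were the exception to the genotype order, with knockout arrays at 8.44 to 8.76 and wild-type arrays at 7.68 to 8.62; that pair was not tested here.

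**Figure D3:**
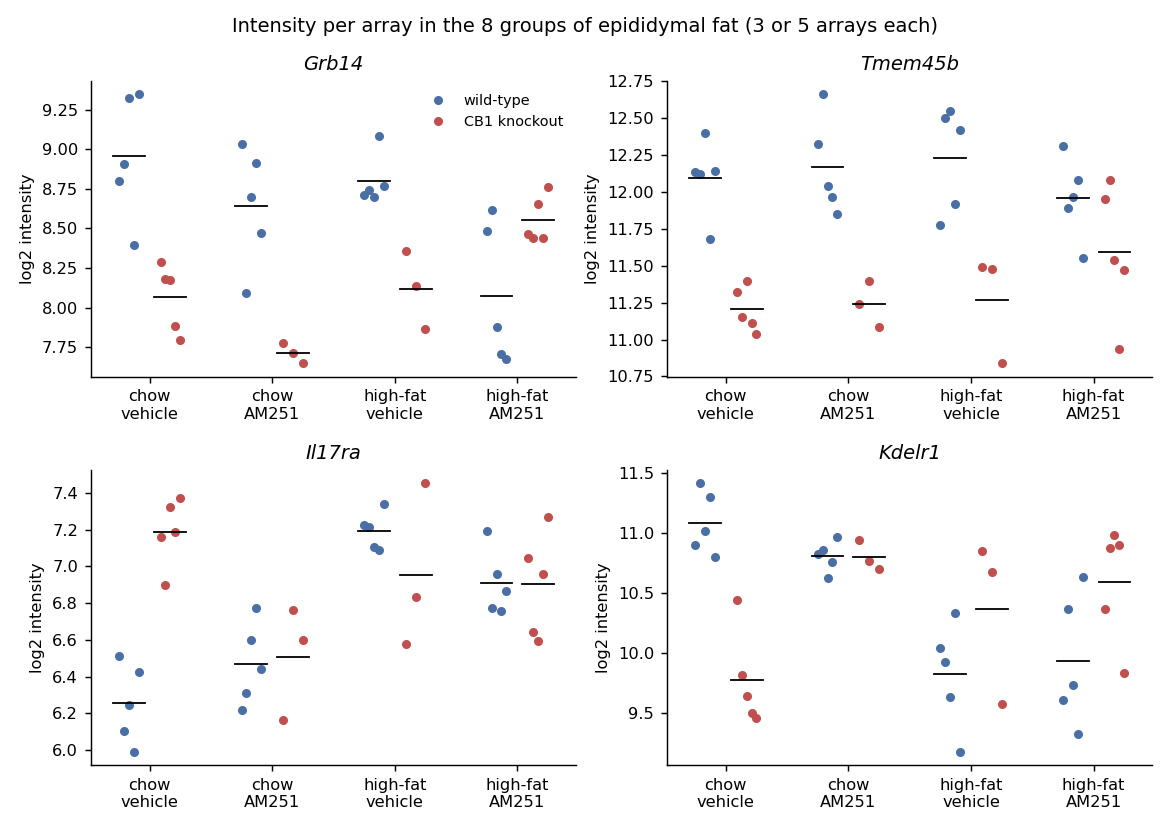
Log2 intensity on each array for 4 genes in the 8 groups of fat, wild-type in blue and knockout in red, with bars at the group means. Grb14 and Tmem45b are lower in the knockout in the first 3 pairs of groups; Il17ra and Kdelr1 are apart in chow-fed vehicle mice, with means of 7.19 against 6.26 and 9.77 against 11.08, and overlap in the other pairs.

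Promoter sequence is shown for Grb14, the call that recurred, and for Hoxb8, the largest fall among the 11, because the bases before their starts differ sharply in make-up. Both are the 250 bases before the RefSeq start on GRCm38.p6, 5′ to 3′ on the gene's strand, with GC boxes (GGGCGG or its complement, the letters bound by Sp1-type factors) in capitals. The Grb14 stretch lies at chr2:65022767-65023016 on the minus strand, the Hoxb8 stretch at chr11:96281655-96281904 on the plus strand.
Grb14: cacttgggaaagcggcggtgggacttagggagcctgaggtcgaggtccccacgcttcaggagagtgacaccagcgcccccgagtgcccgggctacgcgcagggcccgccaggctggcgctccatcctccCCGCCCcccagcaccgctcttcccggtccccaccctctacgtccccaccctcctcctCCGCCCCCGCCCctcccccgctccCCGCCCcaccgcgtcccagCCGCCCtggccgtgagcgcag
Hoxb8: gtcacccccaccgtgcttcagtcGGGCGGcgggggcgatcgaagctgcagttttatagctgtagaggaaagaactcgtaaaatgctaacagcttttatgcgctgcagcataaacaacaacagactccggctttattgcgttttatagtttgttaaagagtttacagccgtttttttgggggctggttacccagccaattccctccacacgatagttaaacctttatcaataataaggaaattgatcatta

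The Grb14 stretch is 75.2% G and C with 5 GC boxes, the Hoxb8 stretch 44.4% with 1, and the median of all 32851 promoters in the table is 52.4%. A promoter was listed for 10 of the 11 genes. A GC box was present before 7 of the 10 (Grb14, Raly, B3gnt8, Kdelr1, Chtf8, Hoxb8 and Tmem242), against 32.7% of all promoters. CCAAT was found before Hoxb8 and Asb14 (33.8% of all), the TATA letters TATAAA before the same 2 genes (12.4%), the E-box CACGTG before Chtf8 (6.02%), and the cyclic AMP response element TGACGTCA before none of the 10 (1.55%), with its shorter form TGACG, which lies within it, before Raly (17.8%). Both strands were searched, and a match of letters is not a bound site. The shares are of all 32851 listed promoters, not only those of measured genes, and no excess was tested.

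Genes just outside the threshold were named by their unadjusted p. On the lower side the first was Gprc5b, an orphan receptor (log2 difference -1.28 ± 0.27, adjusted p = 0.0556), followed by Tmem45b, a transmembrane protein. Tmem45b, which is bright in this fat, read 11.32, 11.15, 11.40, 11.11 and 11.04 in knockout mice 15 to 19 and 12.13, 12.12, 12.40, 11.68 and 12.14 in wild-type mice 1 to 5. The groups did not overlap. Its log2 difference was -0.89 ± 0.19 (adjusted p = 0.0584). It passed in a fit of the 10 arrays alone (0.0197), after quantile normalization (0.0367), with the mean of all probe sets (0.0441), with array weights (0.0259), and without knockout mouse 15 (0.0467) or wild-type mouse 4 (0.0474), but not in the other 10 alternatives. Tmem45b was lower past the threshold under AM251 (-0.93 ± 0.22, adjusted p = 0.0126) and on the high-fat diet (-0.96 ± 0.22, adjusted p = 0.00183), so that its values in the 3 comparisons of fat lay within 1 SE of each other. In liver it was dim in both genotypes, at 4.79 ± 0.09 in knockout and 4.70 ± 0.11 in wild-type mice (SD, n = 5 each). Atn1, the endothelial receptor Tie1 and AU021092 completed the lower side, at -0.60, -1.29 and -0.69.

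On the higher side the genes nearest the threshold were the B cell surface gene Ms4a1 (CD20; log2 difference 1.07 ± 0.23, adjusted p = 0.0607), the peptide transporter Tap2 (0.71 ± 0.15, adjusted p = 0.0618), the ATP synthase subunit Atp5g2 (0.36 ± 0.08, adjusted p = 0.0618), Ifrd2, the lysosomal scaffold Lamtor2 (1.01 ± 0.23), the receptor Gpr18, the adaptor Crk and the class I histocompatibility gene H2-Q10. H2-Q10 read 8.21, 10.35, 9.80, 9.82 and 10.16 in knockout mice 15 to 19 and 6.65, 9.29, 6.97, 8.68 and 7.63 in wild-type mice 1 to 5. Its wild-type values were spread widely, and wild-type mice 2 and 4 lay above knockout mouse 15. The log2 difference of 1.82 ± 0.42 did not pass (adjusted p = 0.0817), but H2-Q10 passed without knockout mouse 15 (2.18, adjusted p = 0.012) or wild-type mouse 2 (2.18, adjusted p = 0.0304) and with array weights (adjusted p = 0.0267). Under AM251 the groups were far apart (10.45 to 10.88 in knockout and 5.44 to 6.94 in wild-type mice, log2 difference 4.61 ± 0.48, adjusted p = 1.24e-06), and on the high-fat diet the log2 difference was 2.55 ± 0.48 (adjusted p = 0.000332). H2-Q10 belongs to a family of near-identical class I genes on chromosome 17, and the array's probes may read more than 1 of them. Of these 13 genes outside the threshold, 12 passed in at least 1 alternative and AU021092 in none; without knockout mouse 15, Tap2 (adjusted p = 0.0278), Lamtor2 (0.0358), Ifrd2 (0.012) and Tie1 (0.0358) passed beside Tmem45b and H2-Q10. Atn1 passed without wild-type mouse 1 (0.00688), Atp5g2 without knockout mouse 16 (0.0446) or wild-type mouse 2 (0.0304), and Gprc5b without knockout mouse 16 (0.0307). Gpr18 and Tie1 passed without wild-type mouse 3 (0.0428 for both) and Crk without wild-type mouse 5 (0.0262). The log2 difference of Crk was 0.41 on its brightest probe set, 0.09 on the next and 0.60 on the dimmest.

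The largest difference in size did not pass either. Rab5c, a GTPase of early endosomes, read 9.20, 8.13, 7.68, 8.06 and 8.10 in knockout mice 15 to 19 and 10.68, 11.48, 11.02, 11.35 and 10.90 in wild-type mice 1 to 5. All 5 knockout values were far below all 5 wild-type values, with knockout mouse 15 again the highest of its group, and the log2 difference was -2.85 ± 0.67 (adjusted p = 0.0866). Its standard error was set by the spread in the other fat groups. Within high-fat wild-type mice Rab5c ran from 8.05 to 11.73 under vehicle and from 8.03 to 11.63 under AM251. In high-fat knockout vehicle mice it ran from 8.09 to 11.19. The genotypes were alike on chow under AM251, with means of 10.99 in knockout and 10.96 in wild-type fat. In a fit of the 10 arrays alone the log2 difference was -2.85 ± 0.25 and passed (adjusted p = 0.00131), as it did with array weights (0.0453). That fit leaves out the groups in which Rab5c varied most. Complete separation of the 2 groups of 5, in either direction, was seen in 331 genes (1.73%).

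Cnr1 itself did not mark the genotype on this array. The brighter of its 2 probe sets read 6.15, 7.05, 7.13, 7.17 and 7.03 in knockout mice 15 to 19 and 6.70, 7.44, 6.68, 8.02 and 7.35 in wild-type mice 1 to 5. The groups overlapped (log2 difference -0.33 ± 0.32, adjusted p = 0.794), as they did on the dimmer probe set, at 5.42 ± 0.17 and 5.51 ± 0.20 (SD, n = 5 each; log2 difference -0.09). Where the probes lie relative to the deleted sequence is not given in the sources used here, so these levels check nothing about the labels. Among the 50 measured genes nearest to Cnr1 on chromosome 4, 25 on each side, 0 passed the limma threshold and 4 (Gm136, Gpr63, Spaca1 and Ube2j1) had an unadjusted p under 0.05, a share close to the 9.05% of all genes; the median log2 difference of the 50 was 0.03. At 3 genes known to differ between C57BL/6J and C57BL/6N mice, Nnt, Crb1 and Cyfip2, the log2 differences were 0.13, -0.21 and 0.21, and none passed. Nnt spread widely in both groups, from 8.68 to 10.13 on knockout and from 8.55 to 10.21 on wild-type arrays. On the high-fat diet Nnt was higher in the knockout (1.05 ± 0.33, adjusted p = 0.0237). Transcript intensities do not read the sequence of a gene, so whether the backgrounds of the groups matched was not tested.

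Among 19 measured genes of the endocannabinoid system, 0 passed and 3 were higher at an unadjusted p under 0.05, against 9.05% of all genes in either direction. The list median of 0.06, beside 0.02 for all genes, was 0.0012 without knockout mouse 15 and below 0 in 3 of 16 alternatives. The 3 were Gpr18, a receptor for N-arachidonoyl glycine (log2 difference 0.43 ± 0.10, adjusted p = 0.0734), the anandamide-sensitive channel Trpv1 (0.35 ± 0.13, adjusted p = 0.402) and Pla2g4e, an N-acyltransferase of anandamide synthesis (0.15 ± 0.07, adjusted p = 0.529). Gde1, a phosphodiesterase of the same route, was at 0.23 here and passed under AM251 (0.56, adjusted p = 0.0426) and on the high-fat diet (0.75, adjusted p = 0.00111).

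The genes of fuel handling gave almost no calls in this comparison. Of 25 genes of insulin signalling and glucose use, 1 was lower (Grb14) and 0 higher, with a median of 0.07; the next by p were the pyruvate dehydrogenase kinase Pdk1 (0.48 ± 0.14, adjusted p = 0.221) and the pyruvate dehydrogenase subunit Pdha1 (0.38 ± 0.12, adjusted p = 0.306), both of which passed under AM251 at 1.41 and 0.85. Of 51 subunits of the respiratory chain and ATP synthase, 0 passed and 43 lay above 0, as did 55.4% of all genes. At an unadjusted p under 0.05, 8 were higher (9.05% of all genes in either direction), and the list median was 0.09. The succinate dehydrogenase subunit Sdha was at 12.60 ± 0.09 against 12.31 ± 0.04 (SD, n = 5 each), without overlap (log2 difference 0.29 ± 0.08, adjusted p = 0.175). Under AM251 17 of the 51 were higher (1.98% of all genes), and on the high-fat diet 13 (7.22%). Of 24 genes of fatty acid oxidation 0 passed and 18 lay above 0 (55.4% of all genes), with a median of 0.06. The 4 with the smallest p were Acadvl at 0.21 ± 0.11, Etfdh at 0.19 ± 0.11, Acads at -0.53 ± 0.15 (adjusted p = 0.199) and Cpt1a, the gate of mitochondrial import, at -0.26 ± 0.12.

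Lipid synthesis gave calls in the other settings but not here. Of 21 genes of fatty acid synthesis 0 passed in chow-fed vehicle fat, where the list median was 0.21, against 15 higher under AM251 (median 1.20), where 1.98% of all genes were, and 5 higher on the high-fat diet (median 0.46), where 7.22% were. The median of 0.21 ran from 0.06 to 0.32 over the alternatives and was highest without knockout mouse 15. The pentose phosphate enzyme Tkt was at 1.05 ± 0.32 (adjusted p = 0.251), and at 1.43 (adjusted p = 0.0157) without knockout mouse 15. The second Tkt probe set differed by 1.12, but the third and dimmest by 0.02. The elongase Elovl6 was at 0.79 ± 0.39 (adjusted p = 0.551). Acacb, the mitochondrial acetyl-CoA carboxylase, went the other way: it read 7.07, 6.83, 7.02, 7.29 and 6.85 in knockout mice 15 to 19 and 7.47, 8.31, 7.64, 8.38 and 8.50 in wild-type mice 1 to 5. The groups did not overlap, but the log2 difference of -1.05 ± 0.27 did not pass (adjusted p = 0.134), while Acacb was higher in the knockout under AM251 (1.13, adjusted p = 0.0354) and on the high-fat diet (1.16, adjusted p = 0.00843). Of 20 cholesterol synthesis genes 0 passed, with a median of 0.04, against 15 higher under AM251 (1.98% of all genes) and 7 lower on the high-fat diet (8.7%). Calls in 1 setting and not in another are not a tested difference. The genotype by treatment test passed for 0 of the 21 and 1 of the 20 genes (0.00522% of all genes). The genotype by diet test passed for 2 and 0 (6.34% of all genes). None of 23 genes of lipolysis, 15 of triglyceride assembly, 14 of fatty acid uptake or 19 of brown and beige fat cells passed; the medians were -0.01, 0.10, -0.10 and 0.03. Nor did any of 16 regulators of fat cell formation or 20 retinoid genes (medians -0.01 and 0.03), although the zinc finger factor Klf4 lay lower without overlap, at -0.48.

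**Figure D4:**
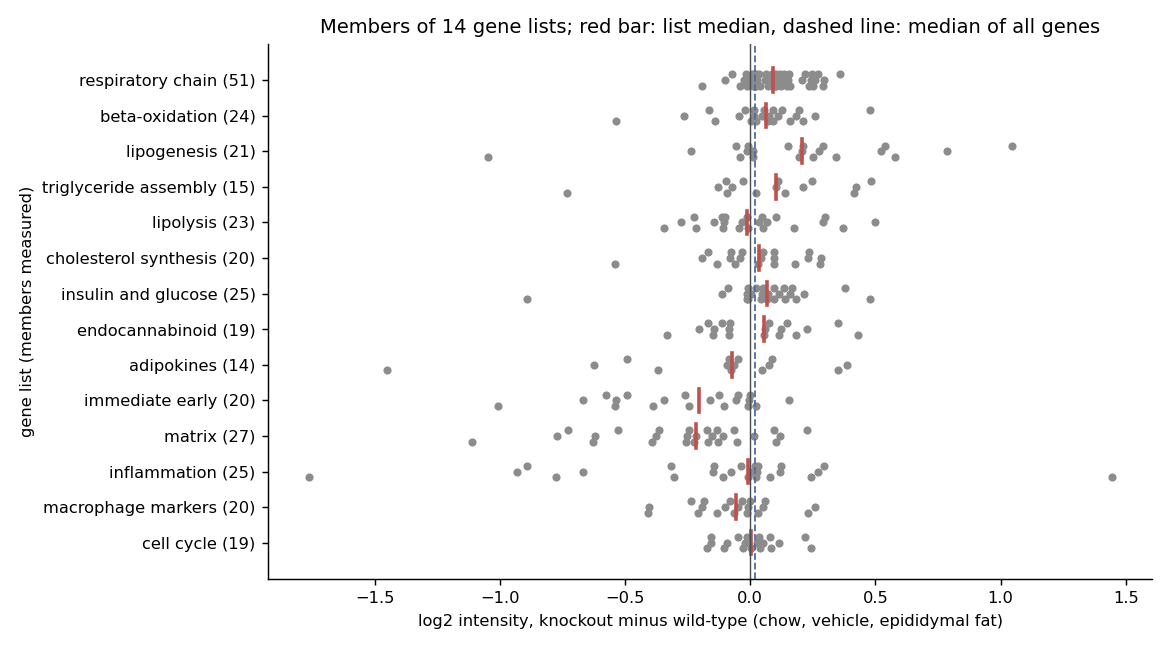
Log2 difference, knockout minus wild-type, of every measured member of 14 gene lists in chow-fed vehicle fat, with red bars at the list medians and a dashed line at the median of all genes. Respiratory chain members lie mostly just above 0, matrix and immediate early genes mostly below, and the Grb14 point at -0.89 is the 1 member past the threshold.

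Matrix and immediate early genes had the lowest medians of the pathway and tissue handling lists. Of 27 matrix genes 0 passed, 22 lay below 0, as did 44.6% of all genes, and 10 were lower at an unadjusted p under 0.05 (9.05% of all genes in either direction), with a median of -0.22. The collagen Col6a1 was at 12.25 ± 0.16 in knockout and 12.63 ± 0.07 in wild-type fat (SD, n = 5 each; log2 difference -0.38 ± 0.10, adjusted p = 0.184), and periostin, Postn, at 9.21 ± 0.20 and 9.83 ± 0.22 (log2 difference -0.62 ± 0.22, adjusted p = 0.341), both without overlap. Both passed in the other fat comparisons, Col6a1 at -0.69 under AM251 and -0.49 on the high-fat diet, and Postn at -0.91 and -1.13. Of 20 immediate early genes, which respond to handling of tissue, 0 passed and 7 were lower at an unadjusted p under 0.05 (again against 9.05%), with a median of -0.20; Jun differed by -1.01 ± 0.25 (adjusted p = 0.109), Egr1 by -0.49 ± 0.19 and Fosb by -0.57 ± 0.23. Whether the sampling of the 2 groups had a part in this was not tested. Without wild-type mouse 5 the medians were -0.22 for both lists.

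Adipokines and immune genes showed scattered values. The Wnt inhibitor Sfrp5 differed by -1.45 ± 0.51 (adjusted p = 0.343) with wide spread in both groups, and was lower past the threshold under AM251 (-4.25, adjusted p = 7.535e-05); the natriuretic clearance receptor Npr3 differed by -0.49 ± 0.17 and Nampt by 0.35 ± 0.12. Of 25 cytokine and acute phase genes 0 passed. The B cell chemokine Cxcl13 was at 8.08 ± 0.71 in knockout and 6.64 ± 0.58 in wild-type fat (SD, n = 5 each; log2 difference 1.45 ± 0.43, adjusted p = 0.225), while the chemokines Cxcl1, Ccl7 and Ccl2 were at -0.89, -0.93 and -0.77. The last 2 read -3.02 each on the high-fat diet, where 14 of the 25 were lower, against 8.7% of all genes. Among 21 interferon-stimulated genes the membrane protein Bst2 was at 9.32 ± 0.12 against 8.44 ± 0.29 without overlap (log2 difference 0.88 ± 0.24, adjusted p = 0.176, and 0.0252 in a fit of the 10 arrays alone). The glucocorticoid-induced Fkbp5 differed by 0.66 ± 0.22 (adjusted p = 0.306); 0 of 14 glucocorticoid genes, 0 of 18 clock genes, 0 of 19 chaperone genes of the endoplasmic reticulum and 0 of 19 cell cycle genes passed. On the high-fat diet 15 of the cell cycle genes were lower (8.7% of all genes).

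The cell type markers did not set the groups apart past the threshold. Of 20 macrophage markers 0 passed, with a median of -0.06 and summed intensities of 13626 to 19197 on knockout and 13934 to 19260 on wild-type arrays; on the high-fat diet 15 of the 20 were lower in the knockout, against 8.7% of all genes. Of 14 lymphocyte markers 12 lay above 0 (55.4% of all genes) with a median of 0.16, and their sums ran from 9236 to 12179 and from 9540 to 11297. These sums mostly follow Cd74, at a mean log2 intensity of 13.22 in knockout and 13.24 in wild-type fat. The next brightest marker, Cd8b1, was at 7.36 and 7.43. Ms4a1, described above, is one of the 14. The B cell markers Cd79b and Cd79a differed by 0.69 (adjusted p = 0.347) and 0.03. Mural and smooth muscle markers had a median of -0.22, with the smooth muscle actin Acta2 at 7.03 ± 0.37 in knockout and 8.02 ± 1.08 in wild-type fat (SD, n = 5 each; log2 difference -0.99, adjusted p = 0.26). Without wild-type mouse 5 the list median was -0.06 and the Acta2 difference -0.53. In bulk tissue, fewer cells of a type and less RNA per cell cannot be told apart.

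The 11 genes behaved differently in the other comparisons of the genotypes, which use other mice in fat. Under AM251 1 of the 11 passed in the same direction (Grb14) and 0 in the other, against 3.39% of all genes in either direction. On the high-fat diet 1 passed in the same direction (Grb14) and 3 in the other, against 15.9% of all genes: B3gnt8 was lower in the knockout (-0.62 ± 0.17, adjusted p = 0.00816), and Hoxb8 (1.20 ± 0.40, adjusted p = 0.0375) and Tmem242 (0.48 ± 0.14, adjusted p = 0.016) were higher. Kdelr1 was at 0.54 ± 0.29, Chtf8 at 0.66 ± 0.29 and Il17ra at -0.24 ± 0.17 there, and none of these passed. In liver, where the knockout mice carry the same numbers and 6.75% of genes passed (2.95% higher and 3.8% lower), 1 of the 11 did: Tmem242 was higher (0.31, adjusted p = 0.0387). It no longer passed without the liver of knockout mouse 17 (0.25, adjusted p = 0.172) or 15 (adjusted p = 0.0763), or of wild-type mouse 1, 2 or 4 (0.166, 0.0654 and 0.0738), or in a fit of these 10 liver arrays alone (0.325), a fit in which 3 liver genes passed in place of 1293. The liver array of knockout mouse 17 lay outside the range of the other 4 knockout livers in 7 of the 11 genes. It read 10.88 for Kdelr1 against 9.16 to 9.88, and 5.36 for Il17ra against 6.34 to 6.54. In every gene the highest and the lowest array of a group lie outside the range of the others. The share over all genes was not counted for this array, so the 7 alone do not set it apart.

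**Figure D5:**
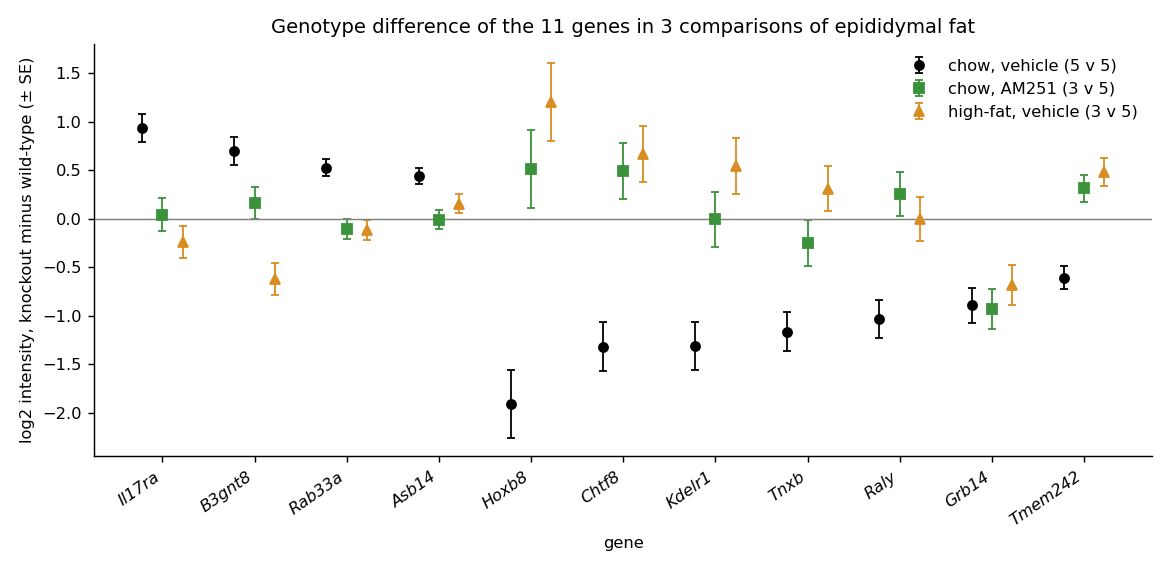
Log2 difference, knockout minus wild-type, with its SE, of the 11 genes in 3 comparisons of fat. In chow-fed vehicle mice (black) all lie away from 0 because they were chosen there; Grb14 keeps its value under AM251 (-0.93) and on the high-fat diet (-0.68), while Hoxb8 goes from -1.90 to 1.20 on the high-fat diet.

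The difference between the settings was itself tested, for the genotype effect on chow minus that on the high-fat diet, both under vehicle. It passed for 1213 genes (6.34%; 3.46% above 0 and 2.87% below) and for 9 of the 11, all but Asb14 and Grb14; since the 11 were chosen on the same chow arrays, their share is not independent of that choice. Among all genes the largest positive values were those of Tph2 (5.02 ± 0.93), the heme oxygenase Hmox1 (4.54 ± 0.82), the proton pump subunit Atp6v0d2 (4.31 ± 0.84), Ubd (4.13 ± 0.72), Rgs1 (4.06 ± 0.72) and the macrophage elastase Mmp12 (3.71 ± 0.79). In chow-fed fat these 6 genes differed by -0.77 to 1.59 with overlapping groups and did not pass; on the high-fat diet they were lower in the knockout, with log2 differences from -5.10 to -2.95. The most negative were those of Rab5c (-3.43 ± 1.02), Hoxb8 (-3.11 ± 0.53), Alb (-2.68 ± 0.83), the motor protein Kif1c (-2.41 ± 0.73), Fam13a (-2.40 ± 0.50) and Acacb (-2.21 ± 0.41).

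For the genotype effect under vehicle minus that under AM251, both on chow, 1 gene passed (0.00522%): Fdps, the farnesyl diphosphate synthase of the mevalonate route (-1.91, adjusted p = 0.00142). In all 2839 genes had an unadjusted p under 0.05, and the count of 1 was 75 without knockout vehicle mouse 16, 34 without wild-type AM251 mouse 10 and 27 without knockout vehicle mouse 17. In vehicle-treated fat Fdps read 8.13, 9.05, 8.79, 8.81 and 8.55 in knockout mice 15 to 19 and 8.78, 9.77, 9.16, 9.37 and 8.95 in wild-type mice 1 to 5. These groups overlapped (log2 difference -0.54 ± 0.18, adjusted p = 0.318), whereas under AM251 Fdps was higher in the knockout by 1.37 ± 0.21 (adjusted p = 0.000248). Of the 11 genes, none passed this test, with Tmem242 at -0.92 (adjusted p = 0.0511), Chtf8 at -1.81 (0.0517) and Rab33a at 0.63 (0.0584) nearest.

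Genes called in the other comparisons were then read in chow-fed vehicle fat. Of the 379 genes higher under AM251, 291 (76.8%) were also above 0 in vehicle-treated mice, where 55.4% of all genes were, but their median log2 difference was 0.10 against 0.59 under AM251, and 0 passed. Of the 271 genes lower under AM251, 206 (76.0%) were below 0, where 44.6% of all genes were, with a median of -0.14 against -0.54, and 1 passed, Grb14. For the high-fat diet the shares were closer to those of all genes: 60.3% of the 1382 higher genes and 66.3% of the 1666 lower genes had the same sign, with medians of 0.05 and -0.06. For liver they were 53.1% of 565 and 56.0% of 728. Genes are not independent of each other, so these shares carry no test.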

How the data were processed

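RNA of liver and epididymal fat had been hybridised to 1-colour arrays of a custom mouse design. The authors deposited 1 linear intensity for each probe set and array, made with RMA per the submitters' processing notes (version not given in the sources used here). Of 38385 probe sets, 24478 had 1 gene symbol in the platform annotation, 65 had several and 13842 were not listed; only the first kind was used. For the 3958 genes with several probe sets the brightest in fat stood for the gene, which left 19147 genes. The RefSeq gene table of GRCm38.p6, in which the Entrez numbers of 24237 probe sets occurred, gave the neighbours of Cnr1; promoters came from RefSeq on the same build.

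Log2 intensities of all 36 fat arrays were fitted with limma 3.58.1 (R 4.3.3), with 1 mean for each of 8 groups, so that all groups share 1 estimate of spread; liver used its 39 arrays. Moderated two-sided tests were adjusted by Benjamini-Hochberg over all genes, threshold 0.05. The fit was run on simulated normal values with planted shifts, drawn independently for each gene and with equal spread in all groups. That run does not show how the fit handles dependence between genes or unequal spread between groups. Named genes are the 12 largest rises and falls past the threshold, filled up with the smallest unadjusted p and said not to pass, Cnr1, up to 4 members of each list by p, the neighbours of Cnr1 with the smallest p, and up to 6 genes each way for differences of effects. Chosen after their values were seen were Rab5c, Acta2, Adipoq, the plotted genes and the printed promoters. The members, gene lists and tests were chosen with earlier results of these data known. The titles number the replicates, those of the wild-type vehicle groups as samples, and each number is taken here as 1 mouse. Which littermates fell in which group is not given. The p-values set each difference against a spread estimated over all arrays of the tissue, and the number of arrays limits the precision. Alternatives were a fit of only the compared groups, quantile normalization, a filter on dim genes (mean log2 of at least 5), the mean of all probe sets, array weights, a trended robust prior, and leaving out each array.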

Additional observations from a re-analysis of the deposited data

Results flagged for a closer look

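Single mice far from the other 4 of their group were found in 7 of 104 groups of 5 values examined (named genes and marker sums); chance gives about 1 in 20 by this criterion. Wild-type mouse 5 had the highest summed smooth muscle and pericyte markers (15018) and epididymal markers (1085), and read 3.32 for Asb14, the highest wild-type value. Knockout mouse 15 read 8.21 for H2-Q10, 6.35 for Atn1 and 6.15 for Cnr1, the lowest of the knockouts each time. Knockout mouse 16 read 8.08 for Gprc5b, the highest of the knockouts.

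A genotype effect that differed between treatments, by limma's test of the difference, was found for Fdps (vehicle minus AM251, -1.91). Genotype effects that differed between diets (chow minus high-fat) among the 11 genes were those of Il17ra (1.17), B3gnt8 (1.32), Rab33a (0.64), Hoxb8 (-3.11), Chtf8 (-1.98), Kdelr1 (-1.86), Tnxb (-1.47), Raly (-1.03) and Tmem242 (-1.09). Among the largest of all genes were Tph2 (5.02), Hmox1 (4.54), Atp6v0d2 (4.31), Ubd (4.13), Rgs1 (4.06) and Mmp12 (3.71) in one direction, and Rab5c (-3.43), Alb (-2.68), Kif1c (-2.41), Fam13a (-2.40) and Acacb (-2.21) in the other. For Alb, knockout mouse 15 and wild-type mice 1 and 3 were bright in chow-fed fat, at 8.49, 8.34 and 7.83.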

How the results depend on the processing

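The 11 calls became 20 with only the compared groups in the fit (5 of them among the 11), 17 with the mean of all probe sets and 40 with array weights (all 11 among them in both), and 2 to 34 in the fits without 1 array; quantile normalization, the dim-gene filter and the trended prior gave 13, 10 and 11. For the other counts, only the compared groups gave 428 in place of 650 (AM251), 5 in place of 1 (genotype by treatment) and 3 in place of 1293 (liver), and the dim-gene filter gave 4 for genotype by treatment; the cause was not tested. Without 1 array the counts ran from 252 to 752 (AM251), 1895 to 3270 (high-fat diet), 1 to 75 (genotype by treatment), 713 to 1688 (genotype by diet) and 580 to 2000 (liver). The sign turned for genes that had not passed: Crb1 (0.014) and Ube2j1 (0.056) with the mean of all probe sets, Nnt, which ran from -0.057 without knockout mouse 17 to 0.37 without wild-type mouse 2 (-0.017 and -0.048 without wild-type mice 3 and 5), and Ubd, from -0.19 without wild-type mouse 4 to 0.018 without wild-type mouse 2. Among the 11 genes the sign held in each alternative run. Of the list medians, those of the endocannabinoid (3 of 16 alternatives), cholesterol (5), lipolysis (3), fat cell formation (5), retinoid (2) and cell cycle (6) lists turned sign. So did those of the cytokine and acute phase (2), interferon (1), glucocorticoid (2), clock (1) and substrain (3) lists. Among marker lists, the macrophage (1), fat cell (6), mesothelial (6), nerve (4), hepatocyte (4) and red cell (3) medians turned. The epididymis (2), neutrophil and mast cell (1) and pancreas (1) medians turned as well. No paired analysis was possible because the knockout and wild-type groups share no replicate numbers; the chow and high-fat wild-type groups share 4, but these mice ate different diets and are different animals.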
